A study of Mus musculus with 4 samples.

Results

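The genes of class II antigen presentation were followed in islet RNA of wild type mice and of mice with a Pdx1-controlled knockout of Bmpr1a, which encodes a receptor of the bone morphogenetic protein pathway. The 9 genes were taken by symbol: Cd74, H2-Aa, H2-Ab1, H2-Eb1, H2-DMa, H2-DMb1, H2-DMb2, H2-Oa and Ciita. Of these, 8 had a named probe on the Illumina mouse bead array, with 12 probes among 46632 in all, and H2-DMb2 had none under its symbol. The whole array named 17711 genes, of which 9352 were tested. Both genotypes were on a C57BL/6 background and 12 weeks old, and RNA of isolated islets was measured on 2 arrays of each genotype. The promoter that controls the knockout, Pdx1, is active in the developing pancreas and in beta cells, and is not known as a leukocyte gene. Whether wild type mice carried a transgene is not stated in the labels, so an effect of a transgene and of the deletion cannot be told apart. Nor is it stated whether arrays of the same genotype are separate animals or pooled RNA, and p-values therefore cover the spread between arrays alone, which may be technical.

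Class II molecules hold peptides from endosomes and show them at the cell surface to T cells that carry Cd4. Each is a pair of an alpha and a beta chain that leaves the endoplasmic reticulum bound to the invariant chain, the product of Cd74. In endosomes, proteases trim the invariant chain, H2-DM releases its last fragment and loads peptide, and H2-O restrains H2-DM. Ciita encodes the coactivator that switches on the whole set. It does not bind DNA itself but docks on factors at the X and Y boxes of class II promoters: the RFX complex and Creb1 at the X box and the NF-Y complex at the Y box. B cells, dendritic cells and macrophages are the main cells with class II, and in islets these are resident or passing immune cells. C57BL/6 mice carry a silent copy of the alpha chain gene H2-Ea, so that H2-Eb1 is transcribed without its partner.

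Between 14785 and 16171 probes were detected per array (detection p below 0.05 against the negative control beads), and the median raw intensity was 76.8 to 81.5. On the normalized log2 scale, in which background is removed and the arrays are brought to 1 distribution, arrays of a genotype correlated at 0.991 in wild type and 0.987 in knockout over the tested probes, and at 0.924 to 0.938 between genotypes. Probes are not independent replicates. The brighter Bmpr1a probe read 793 and 851 in wild type against 887 and 687 in knockout islets. Its change of -0.28 ± 0.14 (SE, log2) did not pass the test (adjusted p = 0.204) and was 0.01 with median scaling. Its place relative to the deleted part is not known here, so it does not check the labels. The islet label was checked against 12 endocrine markers, all detected on all 4 arrays. Their summed raw intensity was 204257 to 211804 in wild type and 238925 to 243178 in knockout islets. In bulk RNA, fewer cells of a type and less RNA per cell cannot be told apart.

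The stretch upstream of a class II gene where Ciita acts can be read from the RefSeq sequence. It is shown as a description, and a link between its motifs and the changes on the arrays was not tested. The 250 bases before the annotated start were searched for 6 members outside Cd74, which was not searched here. H2-Ob, the partner of H2-Oa, and H2-Eb2 were added from the list of other class II genes. Windows for H2-Ab1 and Ciita were not used here. The motifs were the Y box core GATTGG, the X box core GCAAC, and a longer X box pattern of AAC, 3 bases of any kind and TGATG, and both strands were searched. The X box core and the longer pattern share the bases AAC where both are present. These letters were chosen with the sequences in view. The stretches below run from base -130 to base -31 before the start, 5′ to 3′ on the gene's strand in build GRCm38.p6, with every match on that strand in capitals.
H2-Aa (chr17:34287854-34287953, minus strand): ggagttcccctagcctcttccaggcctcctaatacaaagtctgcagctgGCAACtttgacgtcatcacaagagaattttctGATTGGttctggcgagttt
H2-Eb1 (chr17:34305737-34305836, plus strand): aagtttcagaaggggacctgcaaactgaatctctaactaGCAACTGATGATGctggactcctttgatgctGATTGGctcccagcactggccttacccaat
H2-DMb1 (chr17:34153061-34153160, plus strand): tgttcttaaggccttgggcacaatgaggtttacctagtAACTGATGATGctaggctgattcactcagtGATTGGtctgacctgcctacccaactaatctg
H2-Oa (chr17:34092249-34092348, plus strand): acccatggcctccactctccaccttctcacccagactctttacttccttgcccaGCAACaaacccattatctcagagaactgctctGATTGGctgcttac
H2-Ob (chr17:34238775-34238874, plus strand): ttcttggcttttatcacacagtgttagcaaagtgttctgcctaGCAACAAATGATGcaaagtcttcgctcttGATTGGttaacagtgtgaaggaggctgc

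The Y box core stood on the gene's strand in all 5 of these stretches. Its first base lay at -49 for H2-Aa, -60 for H2-Eb1, -62 for H2-DMb1, -44 for H2-Oa and -58 for H2-Ob. H2-Eb1 held a further match on the opposite strand, and H2-DMb2, which had no probe, held one at -91. The longer X box pattern stood 29 bases before the Y box core in H2-Eb1, 30 in H2-DMb1 and H2-DMb2, and 27 in H2-Ob, counted from first base to first base. H2-Aa and H2-Oa had the X box core GCAAC, at -81 and -76, without the longer pattern. H2-Eb2, whose transcript did not pass in limma (adjusted p = 0.259), held the Y box core at -101 and GCAAC at -249, -132 and -9. It lacked the longer pattern, and its stretch is not printed. The leading probe of H2-Ob, which has the longer pattern, did not pass in limma either (adjusted p = 0.920). Its other probe was lower (adjusted p = 0.000641). H2-Aa and H2-Oa were called lower without the longer pattern. H2-DMa has 2 annotated starts: the window of the first held no Y box core, and that of the second held it at -199 without either X box motif on the same strand. Of all 32851 upstream windows of this length, 7.73% held the Y box core on the gene's strand (14.6% on either strand), 0.250% the longer pattern (0.539%) and 16.4% GCAAC (29.9%). The pattern followed by the core at a spacing of 27 to 30 bases occurred in 5 windows, which is 0.0152%. This range was taken from H2-Eb1, H2-DMb1, H2-DMb2 and H2-Ob, whose own windows are therefore among the 5. The share is thus not a separate background. A match is a description of letters and not a measured binding site.

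**Figure D1:**
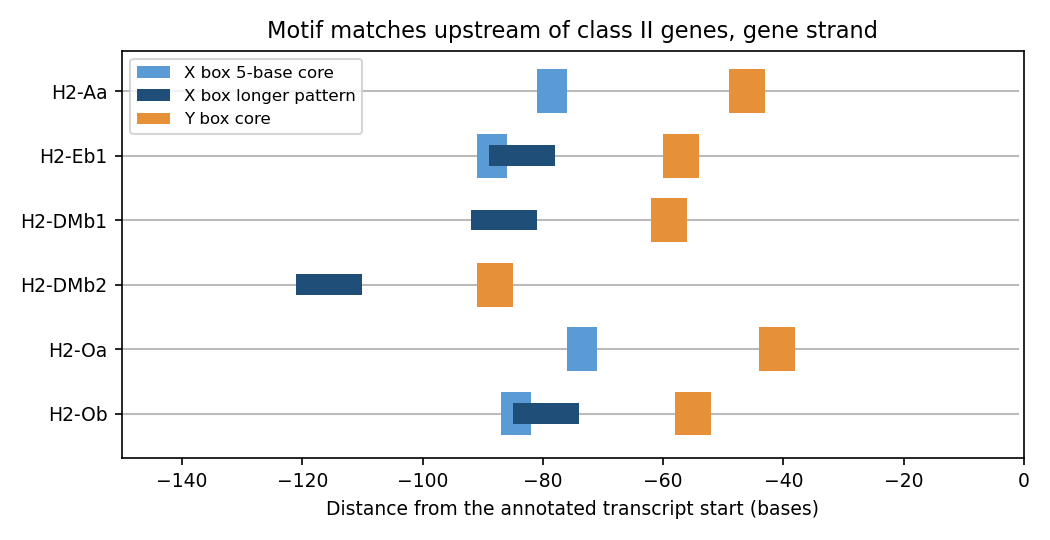
Matches to the Y box core (orange), the X box core (light blue) and the longer X box pattern (dark blue) on the gene's strand, by distance in bases from the annotated transcript start (x axis), for 6 class II genes (y axis). In each gene the Y box core lies nearer to the start than the X box match, with the first base of the core between -91 and -44.

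Transcripts of the classical class II chains and of the invariant chain fell together in knockout islets and stayed detected there. On wild type arrays 1 and 2 the brighter Cd74 probe read 5316 and 6483, and knockout arrays 1 and 2 gave 1827 and 2082, the order used for all values here. Both knockout arrays lay far below both wild type arrays. On the normalized log2 scale Cd74 went from 12.59 ± 0.12 to 10.77 ± 0.21 (SD, n = 2), a change of -1.81 ± 0.16 (SE), or 3.52-fold lower (adjusted p = 0.000803). H2-Aa, the alpha chain of I-A, read 5697 and 6712 in wild type and 3013 and 3419 in knockout islets. Its leading probe had the smallest change among the 8 genes, of -1.11 ± 0.15, or 2.16-fold lower (adjusted p = 0.00433). Its beta chain partner H2-Ab1 read 4765 and 5829 against 1773 and 2073. The H2-Ab1 change was -1.68 ± 0.16, or 3.21-fold lower (adjusted p = 0.00123). A separate H2-Ab1 probe, dimmer at 1026 and 1147 against 401 and 513, gave a similar size of -1.54 ± 0.18 (adjusted p = 0.00256). H2-Eb1, the beta chain of I-E, read 1990 and 2254 in wild type and 872 and 999 in knockout islets. It fell by 1.44 ± 0.15 on the log2 scale, or 2.71-fold (adjusted p = 0.00167). The bead standard errors of the Cd74 probe, 78.8 to 255 intensity units, were small beside the gap between genotypes.

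The genes that edit the peptide cargo fell as well, and the H2-O chain ended below the detection limit. H2-DMa, the alpha chain of the peptide exchange factor H2-DM, read 531 and 519 in wild type and 205 and 203 in knockout islets. The knockout arrays were nearly equal, at 7.18 ± 0.01 (SD, n = 2) on the log2 scale against 8.96 ± 0.10, and the change was -1.78 ± 0.13 (SE, adjusted p = 0.000449). H2-DMb1, its beta chain, was read by a pair of probes. The leading one gave 235 and 343 in wild type and 130 and 140 in knockout islets, a change of -1.55 ± 0.22 (adjusted p = 0.00550), with the wild type arrays spread by 0.45 (SD, log2). The other gave 298 and 254 against 115 and 121, a change of -1.83 ± 0.16 (adjusted p = 0.000956). The wild type arrays differed in opposite directions on these probes, while the knockout arrays lay below them on each. H2-DMb1 and H2-DMb2 are near-identical copies, so the probes may read both. H2-Oa, the alpha chain of the H2-DM inhibitor, read 252 and 264 in wild type islets, and 84.9 and 88.4 in knockout islets, where it was not well above background. Set against the lowest detected values of the knockout arrays, or its own value where higher, H2-Oa was at least 4.27-fold lower on the background-corrected scale (adjusted p = 0.000139), and at least 2.57-fold lower without background correction. Such bounds depend on how background is removed, so where a bound is printed for a gene, both values are given, in this order.

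Ciita, the switch of the set, was dim in wild type islets and not well above background in knockout islets. Its leading probe read 188 and 254 against 55.6 and 76.0, so the genotypes did not overlap. The drop of Ciita was at least 3.38-fold with background correction and 2.16-fold without it (adjusted p = 0.000859). The second Ciita probe, matched to another transcript record, was close to background throughout, at 119 and 117 against 99.5 and 99.8. Its change of -0.34 ± 0.12 did not pass (adjusted p = 0.0847), and 1 of the 2 knockout arrays detected it. A dim second probe of Cd74, at 153 and 169 against 119 and 118, changed by -0.68 ± 0.13 (adjusted p = 0.0150). That call was lost without wild type array 1 or 2 (adjusted p = 0.0549 and 0.109). The offset added before taking logs shrinks the changes of dim probes, and its part in the smaller changes of these 2 probes was not tested.

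**Figure D2:**
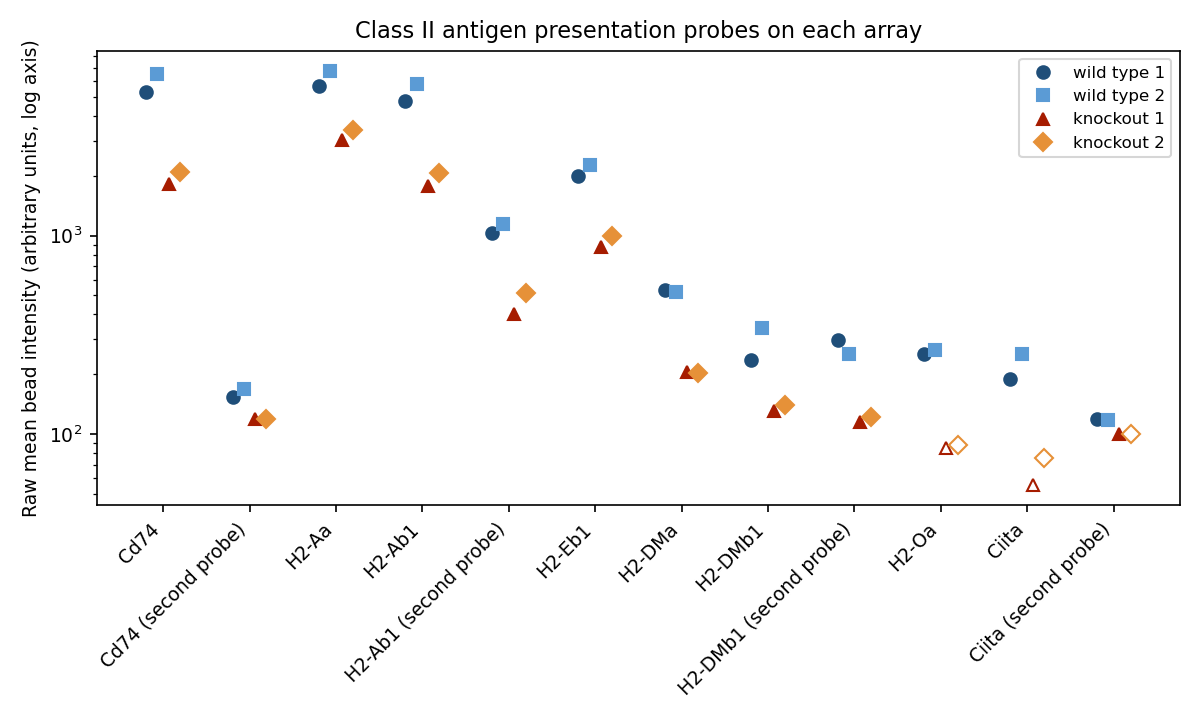
Raw mean bead intensity (y axis, log scale, arbitrary units) of the 12 class II probes (x axis) on the 2 wild type arrays (blue) and 2 knockout arrays (red and orange), with open symbols where the detection p was 0.05 or above. Both knockout arrays lie below both wild type arrays for every probe, and the leading probes of H2-Oa and Ciita are open in knockout islets. Brightness differs between probes for reasons of the probe, so levels of different genes are not to be compared.

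All 8 measured genes were lower by their leading probe, as were 11 of the 12 probes, where 11.0% of all 9352 tested genes and 11.4% of tested probes were called lower in limma. None of the 8 was higher, where 14.5% of tested genes were. All 8 were lower at least 2-fold past the threshold, where 5.18% of tested genes were. On the normalized scale both knockout arrays lay below both wild type arrays in 8 genes, and in 28.7% of tested genes. The median change was -1.73, or -1.72 with H2-Oa and Ciita at their bounds, beside 0.06 over all tested genes. H2-Oa and Ciita passed the detection filter through the wild type arrays only, and such genes had to be lower to be tested at all. Among the 6 genes detected on all 4 arrays, 6 were lower, with a median of -1.61. Without any 1 of the 4 arrays, 8 genes were still called lower.

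**Figure D3:**
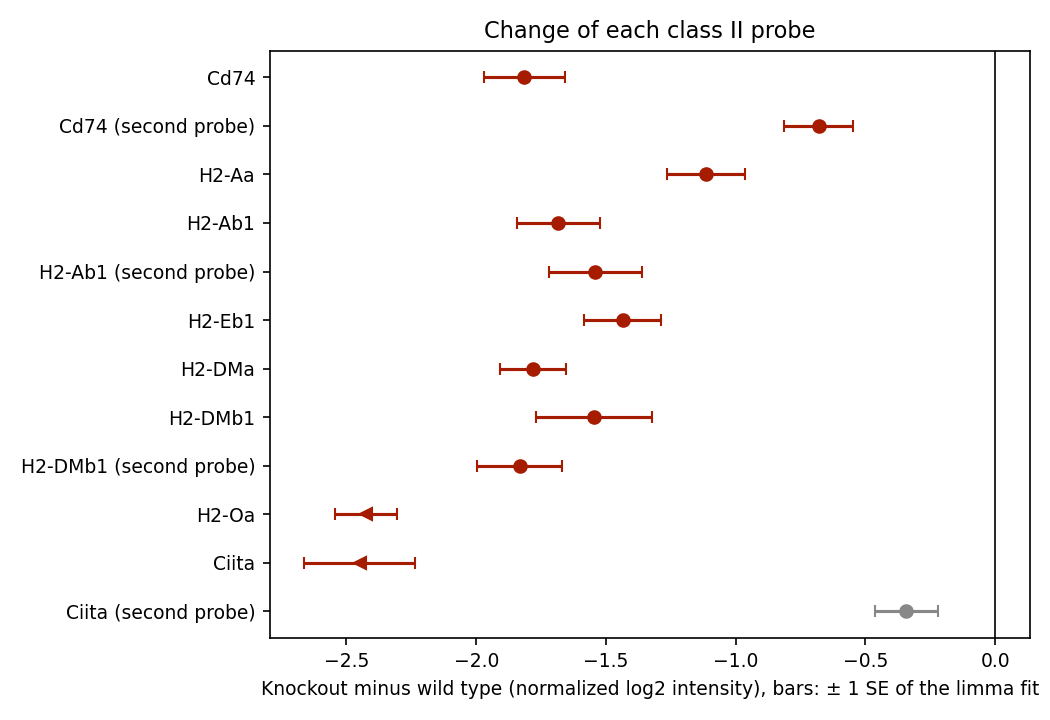
Change of each class II probe, knockout minus wild type on the normalized log2 scale (x axis), with bars of 1 standard error of the limma fit. Red marks probes past an adjusted p of 0.05, grey the probe that did not pass, and triangles mark H2-Oa and the leading Ciita probe, for which both knockout arrays were not well above background. For these 2 the plotted point is a fitted value that rests on the background level, not a measured size. The other changes run from -1.83 for the second H2-DMb1 probe to -0.34 for the second Ciita probe.

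Whether the members fell by the same amount could not be settled with 2 arrays a genotype. Relative to Cd74 on the same array, H2-Aa stood at 0.09 and 0.04 (log2) in wild type and at 0.77 and 0.76 in knockout islets. The estimated change of H2-Aa was smaller than that of Cd74 by 0.70, and the 4 values did not overlap between genotypes. H2-Eb1 likewise changed by 0.38 less than Cd74, and H2-Ab1 by 0.13 less, each without overlap. For H2-DMa and H2-DMb1 the values relative to Cd74 overlapped between genotypes, with differences of 0.03 and 0.27. The estimated changes of H2-Oa and Ciita were larger than that of Cd74 by 0.61 and 0.64, each without overlap. Both genes were below detection in knockout islets, so these sizes rest on the background level. In an exact two-sided permutation test over 2 against 2 arrays the smallest possible p is 0.333, which was the value for each pair without overlap, so these differences could not reach significance.

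Of 3 further genes of the class II locus, 2 were tested and 0 passed by the leading probe in limma. Counts of called genes in this and the following lists stand beside 11.0% lower and 14.5% higher among all tested genes. H2-Ob, the beta chain of H2-O, was read by a pair of probes that disagreed. The leading probe was flat, at 154 and 145 in wild type and 141 and 159 in knockout islets, a change of 0.02 ± 0.15 (adjusted p = 0.920) whose sign turned with cyclic loess (-0.03). The other read 256 and 255 against 60.8 and 93.2, was undetected in knockout islets and dropped at least 4.23-fold or 2.55-fold (adjusted p = 0.000641). H2-Eb2, a further beta chain gene, changed by -0.30 ± 0.18 (adjusted p = 0.259). H2-Ea was undetected on all 4 arrays, with 67.2 to 82.6.

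Transcripts of the proteins that Ciita docks on showed little of this change. Of 11 genes of the X box and Y box machinery and its coactivators, 9 were tested, 1 fell and 0 rose by the leading probe, with a median of -0.16. That count lower is near the share of 11.0% among all tested genes. Rfx5, the large DNA-binding subunit of the RFX complex, read 426 and 474 in wild type and 516 and 491 in knockout islets, a change of 0.02 ± 0.12 (adjusted p = 0.900) that took the other sign with cyclic loess. Rfxap, another RFX subunit, changed by 0.05 ± 0.15 and also turned with cyclic loess. Rfxank, the remaining subunit, was below detection in wild type islets, at 105 and 101 against 115 and 106. The NF-Y subunit genes Nfya and Nfyb changed by -0.37 ± 0.21 and -0.21 ± 0.13, with Nfyb at 0.05 under median scaling. None of these 5 passed (adjusted p = 0.235 to 0.900). Creb1, undetected in knockout islets, dropped at least 1.27-fold or 1.15-fold (adjusted p = 0.0376), a call lost when either wild type array or knockout 1 was left out (adjusted p = 0.0945, 0.197 and 0.102), without a filter (0.103) and with an offset of 50 (0.0568). The acetyltransferase genes Crebbp and Ep300 changed by 0.24 ± 0.13 and -0.16 ± 0.17, and Smarca4, of the chromatin remodeller, by -0.23 ± 0.14, none past the test.

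Upstream of Ciita, the list of interferon gamma signalling held 10 genes, of which 8 were tested, 2 rose and 0 fell. Among all tested genes 14.5% were called higher and 11.0% lower, and the list as a whole was not tested. Ifngr2, a chain of the interferon gamma receptor, read 523 and 559 in wild type and 1180 and 1142 in knockout islets, a rise of 1.00 ± 0.12 (adjusted p = 0.00284). The receptor kinase gene Jak2 rose by 1.13 ± 0.14, from 145 and 161 to 262 and 274 (adjusted p = 0.00351). Interferon gamma itself, Ifng, was undetected on all 4 arrays. Of 6 transcription factor genes that set Ciita in blood cells, 3 were tested and 2 fell. Irf8, a factor of B cells, dendritic cells and monocytes, read 736 and 900 against 187 and 166, and fell by 2.77 ± 0.15 (adjusted p = 0.000161). Ikzf1, a lymphoid factor, fell by 1.84 ± 0.47 (adjusted p = 0.0352), with knockout arrays at 142 and 319. Its change ran from -2.64 to -1.04 when 1 array was left out. The leading Ikzf1 probe lost its call when either wild type array was left out and when no filter was used (adjusted p = 0.128 to 0.156), while its other probe, undetected in knockout islets, gave a drop of at least 4.85-fold or 2.84-fold (adjusted p = 0.000220).

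Among 11 genes of endosomal processing, 10 were tested, 5 fell and 1 rose, with a median of -0.41, where 11.0% of all tested genes were lower and 14.5% higher. With median scaling 3 fell and 1 rose, with a median of -0.19. Ctsh, an endosomal aminopeptidase, fell by 2.24 ± 0.23, from 449 and 467 to 126 and 171 (adjusted p = 0.00164). Ifi30, the thiol reductase that opens disulfide bonds of antigens, fell by 1.62 ± 0.14 (adjusted p = 0.000770), and Ctsc, another lysosomal peptidase, fell by 1.01 ± 0.15 (adjusted p = 0.00556). Sppl2a, the intramembrane protease that clears the last stub of the invariant chain, moved the other way. It read 562 and 511 in wild type and 1260 and 1049 in knockout islets, a rise of 1.01 ± 0.15 (adjusted p = 0.00576). The genes Ctsb, Ctsd, Lgmn and Asph did not pass by their leading probes (adjusted p = 0.237 to 0.817).

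Of 10 genes of class II turnover and endosomal sorting, 8 were tested and 1 fell. That gene, Cd83, which protects surface class II from degradation, read 391 and 542 against 145 and 150 and fell by 2.23 ± 0.18 (adjusted p = 0.000641). Cd82, a tetraspanin of class II compartments, changed by -0.31 ± 0.13 (adjusted p = 0.123). Among 5 ligands and partners of the surface invariant chain, 4 were tested and 2 fell. The coreceptor gene Cd44 fell by 1.46 ± 0.16 (adjusted p = 0.00218) and the chemokine receptor gene Cxcr4 fell by 2.31 ± 0.20 (adjusted p = 0.000859). The 2 not past the test were the cytokine gene Mif, which binds the invariant chain, at -0.35 ± 0.12 (adjusted p = 0.0826), and its relative Ddt, at -0.29 ± 0.14. These 2 stand outside the rule for named genes and were added after their values were seen.

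The ligands and receptors of the contact with T cells were mostly dim. Of 8 costimulatory and coinhibitory ligand genes, 4 were tested and 1 fell. Cd86, a costimulatory ligand of activated antigen presenting cells, read 260 and 297 in wild type and 101 and 82.9 in knockout islets, and fell by 2.44 ± 0.18 (adjusted p = 0.000482). It was below detection on knockout array 2, so the fitted size rests partly on the background level. With detection required on all 4 arrays it was not tested, and 0 genes of this list fell. Cd274, a coinhibitory ligand, changed by 0.39 ± 0.12 and missed the threshold (adjusted p = 0.0620), while median scaling put it at 0.66 (adjusted p = 0.0176). Of 6 genes for class II recognition by T cells, 4 were tested and 4 fell. None of the 4 was well above background in knockout islets, so each was tested through its wild type arrays only and had to be lower, and with detection required on all 4 arrays 0 were left to test. The T cell receptor chain genes Cd3d, Cd3e and Cd3g were at least 9.55-fold, 6.71-fold and 4.28-fold lower with background correction, and 5.05-fold, 3.72-fold and 2.57-fold without it. Lag3, an inhibitory receptor for class II, was at least 1.62-fold or 1.32-fold lower (the 4 at adjusted p = 0.000114 to 0.00386). Cd4 was not tested.

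Markers of leukocytes, which include the main cells with class II, moved on the same arrays, and their part in the class II result was not tested. All 6 pan-leukocyte markers fell, with a median of -3.38, and their summed raw intensity, background included, went from 14773 to 17283 in wild type to 2466 to 2604 in knockout islets. Cd52, a small surface protein of leukocytes, fell by 3.99 ± 0.13, the actin regulator gene Coro1a fell by 3.84 ± 0.20 and Cd53, a leukocyte tetraspanin, fell by 3.46 ± 0.25. Ptprc, the common leukocyte phosphatase, fell by 3.29 ± 0.18, from 533 and 703 to 107 and 124 (adjusted p of the 4 at 5.19e-05 to 0.000475). Of 12 B cell markers 11 had a probe, 8 were tested and 8 fell, with a fitted median of -2.79. All of these except Cd79a and Fcmr passed the detection filter through wild type only, and 4 were undetected on both knockout arrays. With detection required on all 4 arrays, 2 were tested and 2 fell. The sum over the 11 went from 3666 to 4631 to 858 to 968. Cd79b, a chain of the B cell receptor complex, fell by 4.72 ± 0.30 (adjusted p = 0.000294), from 1341 and 1858 to 96.8 and 141. Cd79b was below detection on knockout array 1, so its fitted size rests partly on the background level. Its partner Cd79a fell by 2.93 ± 0.21 (adjusted p = 0.000460). Tnfrsf13c, the receptor for B cell activating factor, and Fcrla were undetected in knockout islets, with drops of at least 9.87-fold and 10.9-fold, or 5.20-fold and 5.67-fold without background correction (adjusted p = 6.07e-05 and 0.000131). Blk and Fcer2a were likewise detected on both wild type arrays and on neither knockout array. Pax5 and Cr2 were below detection on all 4 arrays and Cd22 on all but 1 wild type array, so they show no difference. Of the 10 T cell markers 7 had a probe, 5 were tested and 4 fell. These 4, Cd2 and the Cd3 chain genes, were tested through wild type only, and Thy1, detected on all 4 arrays, changed by -0.55 ± 0.31 and did not pass (adjusted p = 0.241). The list had a sum of 1599 to 1809 in wild type and 545 to 681 in knockout islets.

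Macrophage and monocyte markers moved in both directions, and most dendritic cell markers were too dim to show a change. Of 14 macrophage and monocyte markers 11 had a probe and 6 were tested, 2 rose and 1 fell, with a median of 0.30 and a summed intensity of 2634 to 2889 in wild type and 2444 in knockout islets. The macrophage surface receptor gene Adgre1 read 306 and 319 against 549 and 527, a rise of 0.78 ± 0.12 (adjusted p = 0.00699). Cx3cr1, the fractalkine receptor of resident macrophages, rose by 0.87 ± 0.19 (adjusted p = 0.0229). Each call ended when either wild type array was left out (adjusted p = 0.0539 to 0.136), and that of Cx3cr1 without knockout 1 (0.0518) and without a filter (0.0827). Lyz2, the lysozyme gene of myeloid cells, fell by 3.19 ± 0.32, from 877 and 1259 to 141 and 219 (adjusted p = 0.00141). The complement genes C1qa, C1qb and C1qc, made by tissue macrophages, did not pass (adjusted p = 0.0819 to 0.946), and were added after their values were seen. Of 12 dendritic cell markers 4 were tested and 1 fell: Ccr7, the lymph node homing receptor, at least 1.22-fold or 1.12-fold lower (adjusted p = 0.0393). Leaving out either wild type array or knockout 1 ended this call (adjusted p = 0.208, 0.0780 and 0.112), without a filter (0.0936) and with an offset of 50 (0.0686). Ccl22, a chemokine of dendritic cells, changed by -0.34 ± 0.15 (adjusted p = 0.138). Another 8, among them the defining markers Itgax, Flt3, Xcr1 and Clec9a, were below detection in both genotypes and were not tested. The summed list, background included, was 1126 to 1189 in wild type and 1108 to 1124 in knockout islets.

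Set beside these lists array by array, the median class II value rose relative to that of pan-leukocyte markers and dropped relative to that of macrophage markers. The median class II value minus the median pan-leukocyte value was -0.62 and -0.64 (log2) in wild type and 1.58 and 1.39 in knockout islets. Class II signal was thus higher relative to pan-leukocyte signal in knockout islets, by 2.12. Against macrophage and monocyte markers it moved down by 1.27, from 1.86 and 2.02 to 0.61 and 0.73. Each of these sets of 4 values was free of overlap between genotypes. They are descriptions, since the members were chosen with results of these arrays known.

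**Figure D4:**
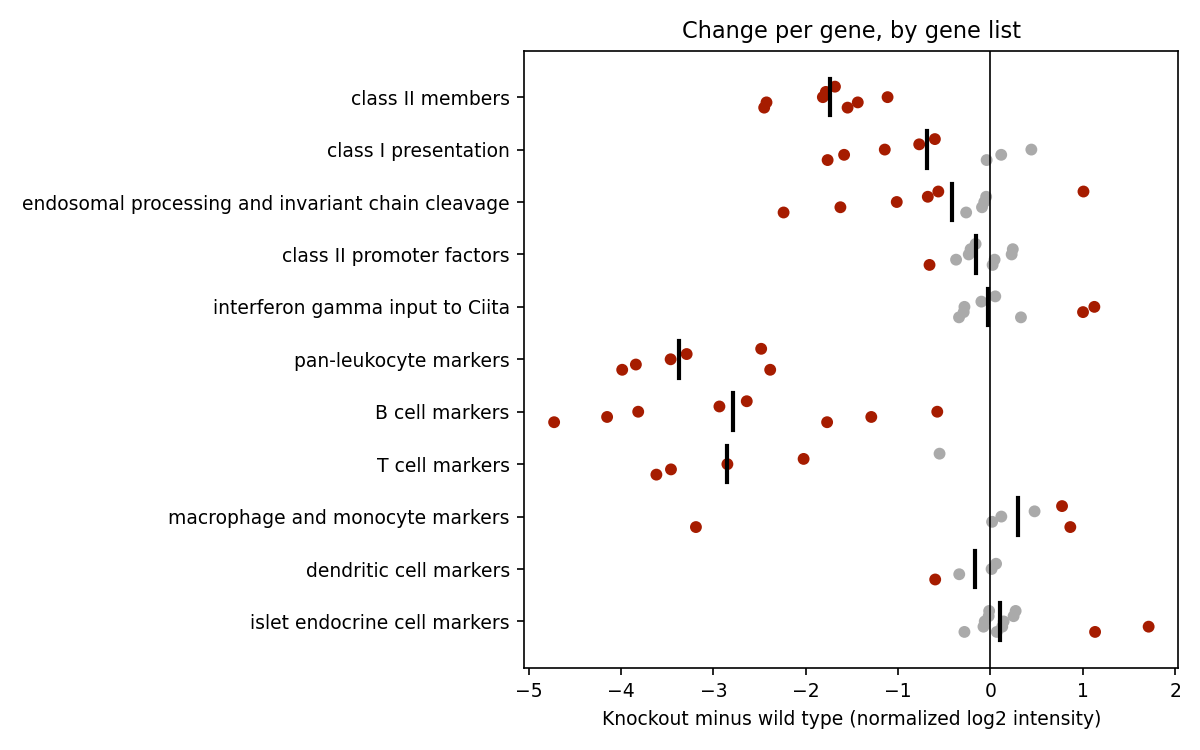
Change per tested gene by its leading probe, knockout minus wild type on the normalized log2 scale (x axis), in 11 gene lists (y axis). Points are genes, red where the adjusted p is below 0.05, and black bars are list medians: -1.73 for class II members, -3.38 for pan-leukocyte markers, -2.79 for B cell markers and 0.30 for macrophage and monocyte markers. Of the B cell markers, 4 rest on values below detection on both knockout arrays, and Cd79b and Ms4a1 partly do so. Height within a row only spreads the points.

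The class I pathway, which shows peptides of the cell's own cytosol on nearly all cells, changed less as a list. Of 10 genes 8 were tested, 5 fell and 0 rose, with a median of -0.69, where 11.0% of all tested genes were lower. Psmb10, among the 5, fell by 0.77 ± 0.13 (adjusted p = 0.00871). With median scaling 3 fell and 1 rose, and Psmb10 did not pass (adjusted p = 0.0515). The immunoproteasome subunit genes Psmb8 and Psmb9, which lie between H2-DMb1 and H2-Ob on chromosome 17, fell by 1.76 ± 0.15 and 1.58 ± 0.13 (adjusted p = 0.000888 and 0.000661). B2m, the light chain of class I, read 8024 and 8090 against 4114 and 3787 and fell by 1.14 ± 0.12 (adjusted p = 0.00189). Tap2, a peptide transporter gene beside Psmb8, did not pass at 0.44 ± 0.14 (adjusted p = 0.0654), and was added after its value was seen because it is a neighbour of genes that fell.

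Markers of other tissue in an islet preparation were also read on these arrays. Of 8 markers of lymph node stroma and vessels 7 had a probe and 3 were tested, and 1, the lymphatic vessel receptor gene Lyve1, fell by 1.91 ± 0.14 (adjusted p = 0.000513). Prox1 of the same list changed by -0.27 and did not pass, and was added after its value was seen. Cxcl13, the chemokine of B cell follicles, read 564 and 778 in wild type and 233 and 647 in knockout islets, a change of -1.05 ± 0.53 (adjusted p = 0.191) that passed without knockout 2 (adjusted p = 0.00341) and with the replicate number as a block (0.0478). Madcam1 and Chst4 were below detection on all 4 arrays, and Glycam1 and Ccl21a on all but 1 wild type array, so these 4 were not tested. The summed list was 2157 to 2498 in wild type and 1173 to 1483 in knockout islets. None of 7 endothelial markers passed in limma, with changes of -0.11 to 0.57. The count higher depended on the processing: 4 with median scaling, 4 with a variance prior that follows intensity, and 3 with the authors' values. Of 9 tested acinar markers 2 fell, Cpa1 and Prss2, and 0 rose, with a median of -0.50. Among 3 tested duct markers 1 rose, Cftr, with a fitted change of 3.61, and 1 fell, Sox9. With detection required on all 4 arrays, 2 duct markers were tested and 0 rose. The counts lower of acinar and duct markers depended on the processing. With median scaling they were 0 in both lists, and with the replicate block 5 for acinar and 0 for duct markers. Of the 12 endocrine markers 2 rose, Chgb and G6pc2, and 0 fell, with a median of 0.10. The part of these cells in the class II result was not tested.

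Among all other tested genes, those with a pattern most like Cd74 were sought by the root mean square distance over the 4 arrays, after each gene was centred on its own mean. The 5 nearest outside the members were Timd4, a receptor of phagocytes for dying cells (distance 0.04, log2), Shcbp1, an adaptor-binding protein gene of dividing cells (0.05), the phosphatase gene Ppm1m (0.06), P2ry10, a lymphocyte receptor gene (0.07), and Rfc4, a clamp loader of DNA replication (0.07). Ppm1m and Rfc4, detected on all 4 arrays, changed by -1.78 and -1.69. Timd4 and P2ry10 were below detection in knockout islets and Shcbp1 on 1 knockout array, so their distances rest partly on the background level. Of 9351 genes ranked, H2-Ab1 was 5, H2-DMa 55, H2-Eb1 92, H2-DMb1 117 and H2-Aa 274. H2-Oa and Ciita, below detection in knockout islets, were 233 and 264. With 4 arrays in 2 groups the distance mostly reflects the size of the change between genotypes.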

How the data were processed

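The scanner table deposited by the authors holds, per the file headers, a mean bead intensity, a bead standard error, a bead count and a detection p-value for each probe and array. The authors' processed table holds log2 values. Its wild type 1 column equals the log2 raw intensity to within 5e-09, and each column keeps the rank order of its raw intensities, so the values are not centred. How the authors scaled the arrays is not given in the sources used. Normexp correction of the background ran through the detection p-values (limma 3.58.1, R 4.3.3, offset 16) and was followed by log2 and quantile normalization over 46632 probes. The 15639 probes tested had a detection p below 0.05 on both arrays of a genotype. They were compared by lmFit and eBayes (6.24 degrees of freedom), with p-values adjusted by Benjamini-Hochberg at 0.05. Changes are knockout minus wild type with limma's standard error.

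A gene was represented by its brightest tested probe. Names came from the platform annotation, with 1 symbol for 29965 probes, several for 10 and none used for 16657, and were updated to RefSeq symbols through the gene identifier. The 9 members were given by symbol. Of each other list except the endothelial one, up to 4 called genes with the largest change were named, or the 2 largest where fewer than 2 passed. The members and lists were chosen with earlier results of these data known. The fit was tested on simulated data. In 26.8% of tested probes the wild type arrays, and in 35.9% the knockout arrays, differed by more than the 95% range of their bead standard errors. The number of arrays limits the precision.

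The replicate numbers were not treated as pairs: deviations of same-numbered arrays from their genotype means correlated at 0.018 over tested probes, and the labels name no shared animal or day. Alternatives covered background, offset, normalization, filter, variance prior, replicate block and each array left out, where the lone array of a genotype is assumed to vary like the others.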

Additional observations from a re-analysis of the deposited data

How the results depend on the processing

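The 8 class II genes were called lower, and 0 higher, under each alternative run, except that requiring detection on all 4 arrays left 6 tested, of which 6 were lower. Their median change of -1.73 was -1.43 with the authors' values, -1.52 without background correction, -1.60 with an offset of 50, -1.48 with median scaling, -1.61 with detection on all 4 arrays, and between -1.82 and -1.59 without any 1 array. Of 164 values of single class II probes under the alternatives, 162 kept their direction and their side of the threshold, and the other 2 were the dim Cd74 probe without a wild type array. Median scaling moved the median of all tested genes from 0.06 to 0.25. Over all probes it called 3517 higher and 1391 lower, against 2203 and 1785. Cyclic loess called 1832 higher and 1884 lower. Without any 1 array, 677 to 2041 were higher and 787 to 1790 lower, the lowest counts being without a wild type array: 677 and 919 without array 1, 690 and 787 without array 2. With the replicate block the counts were 2141 and 1776. Among other genes, the block gave Cxcl13 a call (adjusted p = 0.0478) and moved no class II call, and the arrays share only a number.

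Small values that did not pass changed sign. With median scaling Bmpr1a was 0.0126 and Nfyb 0.05. With cyclic loess the leading H2-Ob probe was -0.0311, Rfx5 -0.0064 and Rfxap -0.0148. Without any 1 array, H2-Ob ran from -0.11 to 0.16, Rfx5 from -0.0125 to 0.0604, Rfxap from -0.10 to 0.19 and Ep300 from -0.33 to 0.0074. The cause was not tested.

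Precision rests on 2 arrays a genotype. H2-Oa, Ciita and the second H2-Ob probe were undetected in knockout islets, so only bounds of their change are known. Bounds without background correction were added after the data were seen, and they were lower than the corrected ones for each gene given. With an offset of 50 they were 2.91-fold for H2-Oa and 2.40-fold for Ciita.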

Other observations

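Several pathway genes had a further tested probe that differed from the leading one, and these were named after their values were seen. A dimmer Crebbp probe rose by 0.55 ± 0.16 (adjusted p = 0.0480), a call lost in 8 of 14 alternatives. Another Ifngr2 probe, below detection in wild type islets, read 108 and 91.4 against 142 and 135, at least 1.59-fold higher with background correction and 1.31-fold without it (adjusted p = 0.00939). A second Ifi30 probe fell by 1.19 ± 0.13 (adjusted p = 0.00176) and a second Cd44 probe fell by 1.54 ± 0.14 (adjusted p = 0.000954), while a further Cd44 probe near background changed by 0.01 ± 0.15. Both other tested probes of Rab7, a small GTPase of late endosomes, rose past the test, by 0.65 ± 0.17 (adjusted p = 0.0388) and, from below detection in wild type islets, at least 1.54-fold, or 1.28-fold without background correction (adjusted p = 0.0126), while the leading probe changed by 0.22 ± 0.13 and did not pass. A dimmer Ctsb probe rose by 0.57 ± 0.13 (adjusted p = 0.0251), where the leading one was at -0.05 ± 0.13.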
